A study of Drosophila melanogaster with 2 samples.

Results

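The genes described here are 5 axonemal dynein heavy chains of Drosophila melanogaster (Dhc16F, Dhc36C, Dhc62B, Dhc93AB and Dhc98D) and 4 dynein assembly factors (tilB, Heatr2, Zmynd10 and Spag1). They were chosen by name, as genes of this machinery, and make up 9 of the 13945 protein-coding genes on chromosome arms that carry a peak. Binding of the transcription factor fd3F was mapped by ChIP-seq, the sequencing of DNA that comes down with a precipitated protein, in embryos collected whole at 8 to 18 h of age. They came from a stable transgenic line in which fd3F carries green fluorescent protein (GFP) at its C-terminus, and an antibody against GFP was used on sonicated chromatin of 200 to 800 bp. There was a single group with 2 biological replicates, numbered 1 and 3, from separate biosamples, so no condition could be set against another and no test was possible. Each peak was reduced to its summit, and a gene's window was its annotated body extended by 10 kb on both sides.

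Axonemal dyneins are the motors that bend motile cilia. A heavy chain is the very large motor subunit itself, and dynein assembly factors are cytoplasmic proteins that fold and put together the arms before they enter the cilium. In the fly, motile cilia occur on chordotonal neurons, the stretch and sound receptors, and as sperm tails, and fd3F is a forkhead protein known from genetics to switch on motility genes in the chordotonal neurons together with Rfx, which binds the X-box. Chordotonal neurons are a small part of an embryo. The chromatin came from whole embryos, so the lists do not tell in which cells a peak arose, and occupancy in chordotonal neurons alone was not measured.

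4 peak lists were available: replicate 1, replicate 3 and the replicates pooled, with 30000 peaks each, and a reproducible list of 3917. The reproducible list was the same as the 3917 pooled peaks of highest signal, so a pooled rank up to 3917 and membership of that list are one statement. Of the pooled peaks, 10181 had a q-value of at most 0.05, against 11489 in the replicate 1 list and 8373 in the replicate 3 list, and the other peaks fail that threshold. Signal is the authors' score, used to rank peaks within 1 list and never compared across lists. Read depth is unknown, since no list gives counts.

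The sequences at the start sites of 3 assembly factors are shown first, because these were the member start sites with a pooled summit no more than 259 bp upstream. Each is read 5′ to 3′ on the strand of the gene, from build dm6, with capitals for a match to a forkhead consensus (a purine and a pyrimidine, then AAA, then a pyrimidine and A) or to the X-box of Rfx, both searched on both strands. The motifs may overlap, and in the stretches shown they share no base.
tilB, plus strand, the whole stretch between its start site and that of its divergent neighbour CG14615, chrX:22449492-22449736: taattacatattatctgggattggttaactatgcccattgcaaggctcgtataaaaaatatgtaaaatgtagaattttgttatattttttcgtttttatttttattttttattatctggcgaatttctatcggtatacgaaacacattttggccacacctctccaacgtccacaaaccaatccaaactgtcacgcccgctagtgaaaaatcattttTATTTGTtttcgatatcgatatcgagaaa
Heatr2, minus strand, from past its summit down to the base before the start site, chr3R:14361787-14361888: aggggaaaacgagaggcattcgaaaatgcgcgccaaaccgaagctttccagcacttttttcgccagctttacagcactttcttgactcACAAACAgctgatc
Zmynd10, minus strand, centred on its summit, chr3L:13026468-13026568: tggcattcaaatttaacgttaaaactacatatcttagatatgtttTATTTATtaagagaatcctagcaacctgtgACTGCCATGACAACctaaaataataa
The tilB and Heatr2 stretches each held 1 forkhead match near the start site, and the Zmynd10 stretch held 1 forkhead match and 1 X-box match. A match describes the letters and does not show that a factor was bound there.

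Of the 9 genes, tilB was the 1 with a reproducible summit within 1000 bp of a start site. Over all protein-coding genes that share was 20.8%. With the whole pooled list, 6 of the 9 had a start-site summit (all 4 assembly factors, and Dhc36C and Dhc93AB among the heavy chains), against 58.4% of all genes. Replicate 1 alone gave 5 of 9, against 60.1% of all genes, and replicate 3 alone gave 5 of 9, against 56.2%. In 4 of 9 both replicates had a start-site summit (tilB, Heatr2, Spag1 and Dhc36C), against 45.7% of all genes. The counts over the 9 genes are thus near those over all genes, and the reproducible count is 1 gene. At a q-value of at most 0.05, tilB alone had a start-site peak in both replicate lists, and the share over all genes was not taken there.

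**Figure D1:**
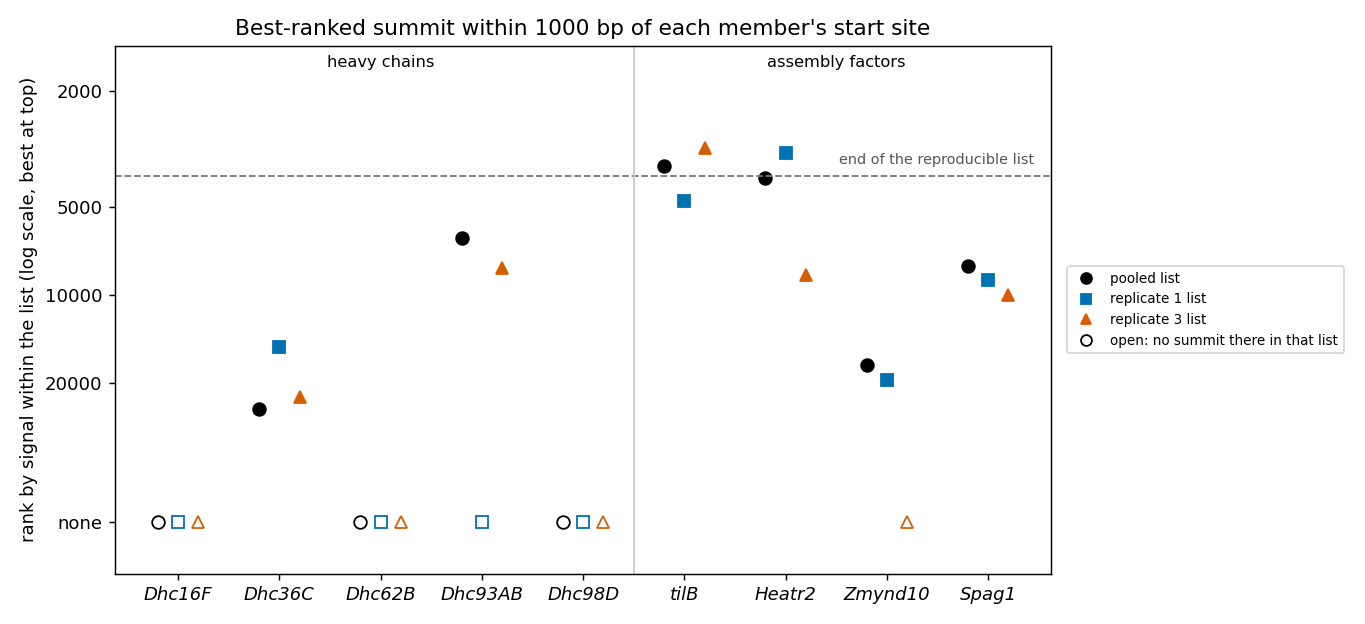
Rank, by signal, of the best summit within 1000 bp of each member's start site (vertical axis, log scale, best rank at the top) in the pooled list (circles), the replicate 1 list (squares) and the replicate 3 list (triangles), with open symbols where a list had none. Only tilB lies above the dashed line at rank 3917 in the pooled list, Heatr2 lies just under it at 3956, and Dhc16F, Dhc62B and Dhc98D have no start-site summit in any of the 3.

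tilB (touch insensitive larva B, the fly relative of human LRRC6, FBgn0014395) lies at chrX:22449737-22451463 on the plus strand and is required for hearing in flies. Its reproducible summit was at position 22449478, 259 bp upstream of the start site, with pooled rank 3615 and a signal of 123. Replicate 1 had the overlapping peak at rank 4765 (signal 56.0) and replicate 3 at rank 3128 (signal 67.9). It was thus among the best 3917 peaks of replicate 3 and below them in replicate 1. The summit fell 13 bp inside CG14615, which starts 246 bp from tilB in the opposite direction, so the peak cannot be assigned to one of the pair. A further pooled summit lay 48 bp upstream of tilB at rank 17112, close to the forkhead match printed above, and replicate 1 placed its own at rank 21778. Neither of these peaks had a q-value of at most 0.05. No forkhead or X-box match lay within 100 bp of the reproducible summit.

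Heatr2, listed in the annotation as Dnaaf5 (FBgn0288976), lies at chr3R:14358356-14361786 on the minus strand. It has no intron and sits inside an intron of NK7.1, a homeobox gene, on the same strand. Its start-site summit at position 14361838 was 52 bp upstream, with pooled rank 3956 and a signal of 114, 39 ranks past the end of the reproducible list. Replicate 1 placed that peak at rank 3251 (signal 72.6), whereas replicate 3 placed it at rank 15810 (signal 20.6) and had a better one at rank 8552, 218 bp downstream of the start site. The replicates thus differed in how strongly they called this peak, and neither of the 2 replicate 3 peaks had a q-value of at most 0.05.

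Zmynd10 (FBgn0266709, chr3L:13024763-13026437, minus strand) had its start-site summit at position 13026518, 81 bp upstream, at pooled rank 17309 with a signal of 38.9. Replicate 1 placed the overlapping peak at rank 19572 (signal 24.6), and replicate 3 listed no summit within 1000 bp of the start site. Neither the pooled peak nor that of replicate 1 had a q-value of at most 0.05. The forkhead match printed above lay 2 bp from the pooled summit, and the X-box match 31.5 bp from it, centre to summit. The only pooled summit inside the gene was in a coding exon at rank 14018, again with a peak in replicate 1 (rank 8767) and none in replicate 3.

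Spag1 (FBgn0039463, chr3R:26947830-26949682, plus strand) differed from the other factors in where the summit fell. Its start-site summit at position 26948061 lay 231 bp downstream of the start site, in a coding exon, at pooled rank 7923 with a signal of 65.5. The overlapping peaks had rank 16030 (signal 27.7) in replicate 1 and rank 9983 (signal 26.9) in replicate 3. Neither of these replicate peaks had a q-value of at most 0.05. Replicate 1 had a better start-site summit at rank 8901, 12 bp downstream of the start, which met that threshold. A pair of glutamine tRNA genes also start within 1000 bp of the pooled summit, so it too is shared with other start sites.

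Among the heavy chains, Dhc93AB and Dhc36C had a start-site summit in the pooled list, and neither had one that both replicates placed at the same spot. Dhc93AB (FBgn0013812, chr3R:21024580-21042499, minus strand) encodes an outer-arm heavy chain. Its summit at position 21043025 lay 526 bp upstream, with pooled rank 6362 and a signal of 77.2. Replicate 3 placed it at rank 8102 (signal 30.9) with the same summit base, and replicate 1 had no overlapping peak. Dhc36C (FBgn0013810, chr2L:17501401-17525515, plus strand), an inner-arm heavy chain, had its summit 387 bp upstream at pooled rank 24615 (signal 30.7), near the end of the list. It lay 92 bp inside mEFTs, which encodes a mitochondrial translation elongation factor and starts 295 bp from Dhc36C in the opposite direction. Replicate 1 had its start-site summit at rank 15097, 527 bp upstream, and replicate 3 at rank 22417, 463 bp downstream, on the other side of the start site. None of these Dhc36C start-site peaks, pooled or by replicate, had a q-value of at most 0.05.

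The strongest summit that lay within a member was in an intron of Dhc36C. It was reproducible, at position 17514302, in intron 16 of 22 and 12901 bp downstream of the start site, with pooled rank 2011 and a signal of 194. Replicate 1 placed it at rank 2419 (signal 89.0) and replicate 3 at rank 1685 (signal 110), with summits 8 and 31 bp from the pooled one. No other annotated gene lay at that position, and the nearest start site was that of CG15143, 10247 bp away. A weaker summit in intron 2 had pooled rank 23321, rank 18299 in replicate 3 and no overlapping peak in replicate 1. The sequence at the reproducible intronic summit is printed with that at the Dhc93AB start-site summit, as the strongest ones owned by heavy chain genes, and with that at the single summit of the Dhc62B window, the best-ranked of all.
Dhc36C, plus strand, intron 16, chr2L:17514252-17514352: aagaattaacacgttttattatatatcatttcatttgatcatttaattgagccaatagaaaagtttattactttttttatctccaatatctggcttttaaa
Dhc93AB, minus strand, upstream of the start site, chr3R:21042975-21043075: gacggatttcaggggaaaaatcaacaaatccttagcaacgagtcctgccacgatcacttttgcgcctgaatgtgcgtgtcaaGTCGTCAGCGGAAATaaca
Dhc62B window, minus strand, between PolD2 and CG13933, chr3L:1775468-1775568: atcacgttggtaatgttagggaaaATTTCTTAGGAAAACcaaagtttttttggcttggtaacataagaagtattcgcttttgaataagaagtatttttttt
In the same capitals, the Dhc36C stretch held no match, with a GC content of 21.8%. The Dhc93AB and Dhc62B stretches held 1 X-box match each and no forkhead match, with a GC content of 47.5% at Dhc93AB and 28.7% at PolD2.

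Dhc62B (FBgn0013811, chr3L:1759172-1771758, minus strand), an inner-arm heavy chain, had the best-ranked summit of the 9 windows and no other summit in any list. That summit, at position 1775518, had pooled rank 72 and a signal of 1150, with rank 57 (signal 611) in replicate 1 and rank 87 (signal 539) in replicate 3. Both replicates thus ranked it among their best 100. It lay 3760 bp upstream of Dhc62B but 115 bp from the start site of PolD2, a DNA polymerase delta subunit, and 371 bp from that of CG13933. It is a neighbour's start-site peak by position, and no list put a summit within 1000 bp of the Dhc62B start site or inside the gene.

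Dhc16F (FBgn0283476, chrX:18064483-18078472, plus strand), also an inner-arm heavy chain, had no summit at its start site or inside it in any list. Its window held 2 reproducible summits, both downstream of the gene. The first, at position 18082931 with pooled rank 2580, was in an intron of CG7536, and had rank 2323 in replicate 1 and 3187 in replicate 3. The next, at position 18085629 with pooled rank 2128, lay 167 bp from the start site of CG7536 and 132 bp from that of Ada3, a subunit of histone acetyltransferase complexes, and had rank 2058 in replicate 1 and 2381 in replicate 3. On the upstream side, 3 pooled summits lay in introns of Sh (Shaker, a potassium channel gene), at ranks 5016, 7427 and 8673.

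Dhc98D (FBgn0013813, chr3R:28486953-28519398, plus strand) had no summit of any list in its whole window of 52.4 kb. Of all protein-coding genes, 2.30% (321 genes) had such an empty window, and 6 of those 321 had a window at least as long, against 608 among all genes. The nearest pooled summits lay 32.5 kb upstream (rank 28430) and 27.1 kb downstream (rank 9386) of the gene. In the replicate 3 list the nearest lay 11.2 kb upstream (rank 12758) and 16.0 kb downstream (rank 27265), and in the replicate 1 list 109 kb upstream (rank 5689) and 27.1 kb downstream (rank 11734).

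**Figure D2:**
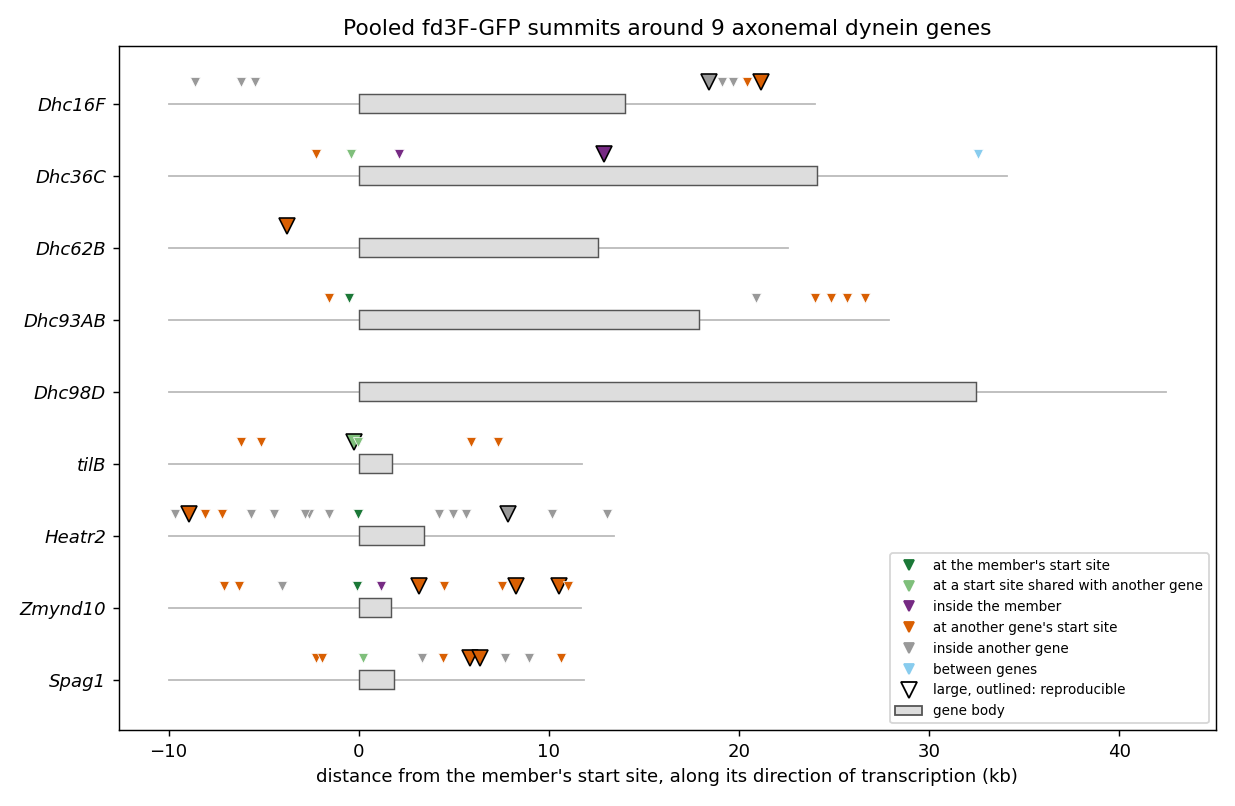
Pooled summits (triangles) in the window of each member, by distance from its start site along its direction of transcription (horizontal axis, kb), coloured by the position of the summit. Grey boxes are gene bodies and large outlined triangles are reproducible summits. Of the 12 outlined summits, 1 is at a member's start site (tilB), 1 is inside a member (Dhc36C) and 10 lie at or inside other genes. The bodies of Dhc16F, Dhc62B, Dhc93AB, Dhc98D, tilB and Heatr2 hold no pooled summit, outlined or not.

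The windows together covered 290 kb and held 64 pooled and 12 reproducible summits, with 75 from replicate 1 and 54 from replicate 3. A reproducible summit lay in 7 of 9 windows, against 59.9% of all genes with the same 10 kb extension, and a pooled summit in 8 of 9, against 91.3%. Member windows ran from 21.7 to 52.4 kb, against a median of 22.2 kb over all genes, and these shares were not adjusted for length. By position, most of the summits in the member windows were at or inside other genes. Flanks made up 180 kb of the windows, so this split depends on the 10 kb extension, and it was not computed over all genes. Of the 64 pooled summits, 30 were at another gene's start site, 23 inside another gene and 1 between genes, while 7 were at a member's start site and 3 inside a member. The 10 summits at or inside a member were 15.6% of the 64 (95% exact interval 7.76 to 26.9%, counting error only). Of the 7 at a member's start site, 4 were also within 1000 bp of another gene's. Of the 12 reproducible summits, 8 were at another gene's start site and 2 inside another gene. Start sites of any gene lay within 1000 bp of 57.8% of the pooled summits in the windows, against 42.8% of all pooled summits. These are unlike sets, since each window was built around a gene, and the share over the windows of all genes was not taken.

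**Figure D3:**
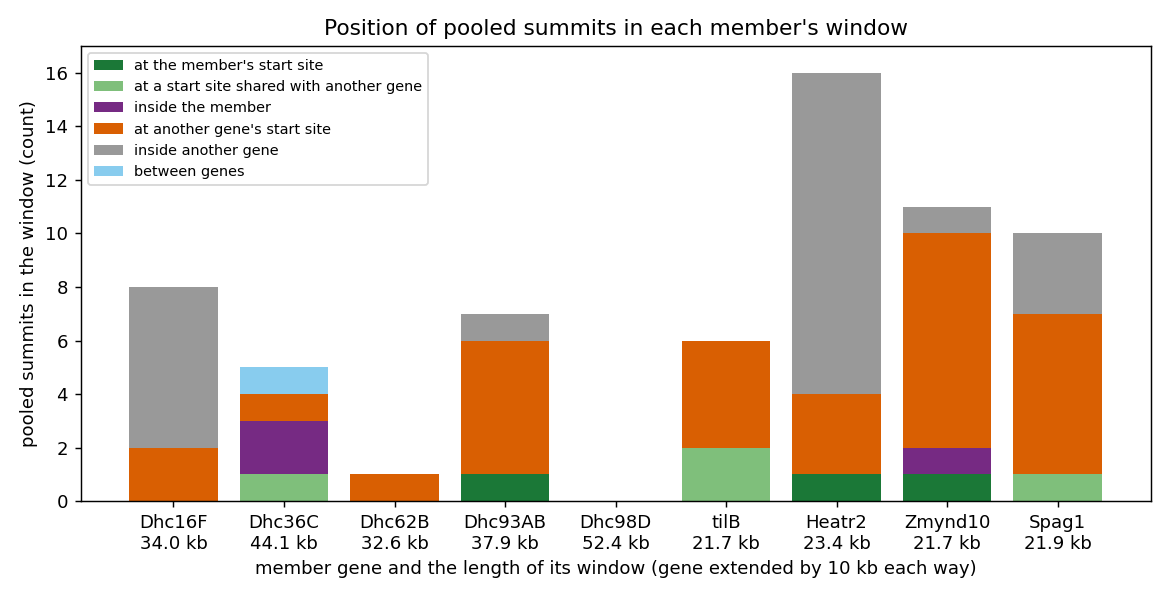
Number of pooled summits in each member's window (bars from 0), split by position, with the length of the window under the name. Other genes' start sites and bodies make up most of every bar except that of Dhc36C, where 3 of 5 summits are at its start site or inside it, and Dhc98D has none.

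The Zmynd10 window held 3 reproducible summits, more than any of the other windows, each at start sites of other genes. In the Zmynd10 window, the summit at position 13018143 had pooled rank 187 and a signal of 756, with rank 219 (signal 358) in replicate 1 and rank 176 (signal 398) in replicate 3. It lay 123 bp from the start site of Icmt, an isoprenylcysteine methyltransferase, 276 bp from that of mRpL20, a mitochondrial ribosomal protein gene, and 967 bp from that of an antisense RNA gene. The summit at position 13023276, with pooled rank 1414, lay 76 bp from the start site of RpS12, a ribosomal protein gene, 588 bp from that of Adk2, an adenylate kinase, and within 1000 bp of a pair of snoRNA genes. That at position 13015913, with pooled rank 1732, lay 137 bp from the start of CG11267 and 581 bp from that of MICAL-like. All 3 were reproducible, and they lay 3161 to 10524 bp from the Zmynd10 start site.

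In the Heatr2 window, 12 of the 16 pooled summits were inside NK7.1 and 3 more were at its start sites. The reproducible ones were at position 14370691, 683 bp from a start site of NK7.1 (pooled rank 1442, replicate 1 rank 1583, replicate 3 rank 1448), and at position 14353924, in an intron of NK7.1 (pooled rank 2276, replicate 1 rank 1890, replicate 3 rank 2651). In the Spag1 window, both reproducible summits were in introns of CG6330 and within 1000 bp of one of its start sites. They had pooled rank 1519 and 2709, with rank 1594 and 2465 in replicate 1 and rank 1476 and 2750 in replicate 3. In the Dhc93AB window, with no reproducible summit, the best one (pooled rank 4340) lay 34 bp from the start site of Rlip, at rank 5944 in replicate 1 and 3650 in replicate 3.

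More of the pooled summits in the windows were matched in both replicates than in 1 of them. A peak of both replicate lists overlapped 38 of the 64 pooled peaks of these windows, which is 59.4% (95% exact interval 46.4 to 71.5%), against 52.4% of all pooled peaks. All 12 reproducible summits had such a match, but that list was derived from both replicates, so this adds no separate evidence of agreement. Of all 64, 22 matched 1 replicate only and 4 matched neither. At or inside the members 5 of the 10 summits were matched in both replicates: both tilB summits, which overlap the same replicate 3 peak, and those of Heatr2, Spag1 and the later Dhc36C intron.

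**Figure D4:**
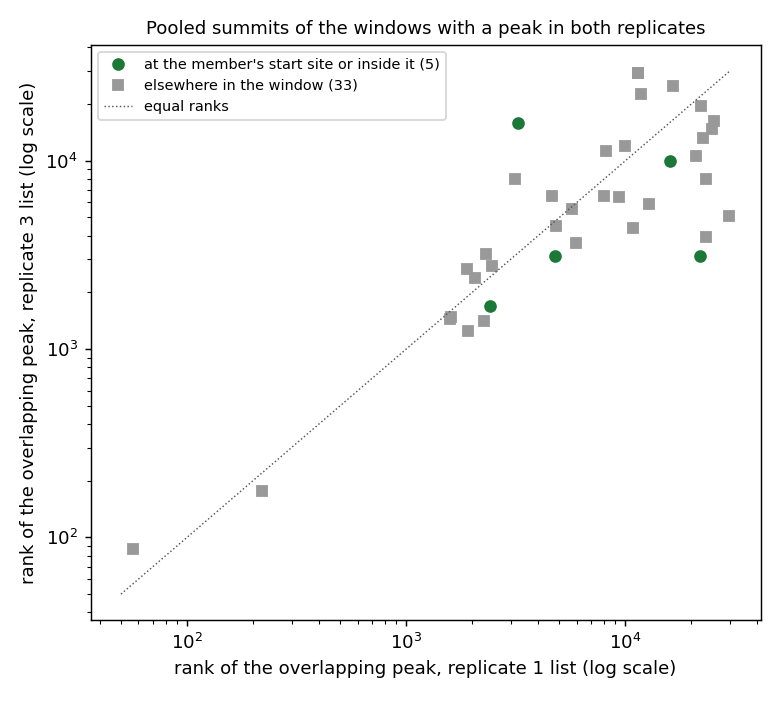
Rank of the overlapping peak in the replicate 1 list (horizontal axis) and in the replicate 3 list (vertical axis), both on log scales, for the 38 pooled summits of the windows matched in both; circles are at a member's start site or inside it and squares elsewhere. The summit at PolD2 (ranks 57 and 87) and that at Icmt (ranks 219 and 176) lie far below the rest on both axes. The Heatr2 start-site summit (ranks 3251 and 15810) lies well off the line of equal ranks, and some others lie further off. Among these are the second tilB start-site summit (ranks 21778 and 3128) and a summit inside Sh (ranks 23311 and 3925).

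The windows of heavy chains held fewer summits for their length than those of assembly factors. There were 21 pooled summits in 201 kb of heavy chain windows, or 1.04 per 10 kb, and 43 in 88.7 kb of assembly factor windows, or 4.85 per 10 kb, against 2.24 per 10 kb over the arms. By gene, Dhc98D had 0 per 10 kb, Dhc62B 0.307, Dhc36C 1.13, Dhc93AB 1.85 and Dhc16F 2.35, while tilB had 2.76, Spag1 4.58, Zmynd10 5.07 and Heatr2 6.83. The median over all protein-coding genes was 2.75, so in the pooled list every heavy chain lay under it and every assembly factor above it, tilB only just. By group, heavy chain and assembly factor windows had 1.04 and 6.09 per 10 kb in replicate 1, and 0.945 and 3.95 in replicate 3. Gene by gene the groups stayed apart in replicate 1 (tilB 3.68, Dhc93AB 2.11). In replicate 3 they overlapped, with tilB at 1.38, below Dhc36C (1.81) and Dhc16F (1.77). Counting the flanks alone, the density was 1.90 per 10 kb around heavy chains and 5.12 per 10 kb around assembly factors. No test was made of this difference, since summits of 1 window share a locus.

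Within the heavy chain genes themselves the lists were nearly empty. Their bodies, 101 kb in all, held 2 pooled summits, both in Dhc36C introns, or 0.198 per 10 kb, against 2.29 per 10 kb over the bodies of all protein-coding genes. Coding sequence made up 64.4% of the heavy chain bodies, against 25.4% of all bodies, and it moved with this result. The 65.1 kb of heavy chain coding sequence held 0 pooled summits, against 1.12 per 10 kb in the coding sequence of all genes. In the reproducible list the bodies held 1 summit, or 0.0990 per 10 kb, against 0.258 over all bodies, a smaller gap. Replicate 1 had 2 summits in the heavy chain bodies. Replicate 3 had 3, among them a summit in a coding exon of Dhc36C (rank 22417). The part of coding content in the low count was not tested.

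Promoters, taken as 250 bp upstream to 50 bp downstream of a start site, were searched for the same motifs. The forkhead consensus matched at 9 of the 10 member start sites (Dhc98D has 2), against 61.1% of 19607 start sites of protein-coding genes, and the X-box at 6 of 10, against 29.6%. The 6 were Dhc16F, Dhc62B, Dhc93AB, the upstream start site of Dhc98D, Zmynd10 and Spag1. The word GTAAACA, 1 of the forms of the forkhead consensus, matched at 1 of 10 (Dhc93AB, 20 bp upstream), against 8.84%. These shares rest on 10 start sites of 9 genes, and no interval was taken. The GC content of the member promoters ran from 30.0 to 45.7% and was not compared with that of all promoters, so enrichment of a motif was not tested. A pooled summit lay in 3 of these promoters, those of tilB, Heatr2 and Zmynd10, and in none of the heavy chain ones. The share of all promoters that hold a pooled summit was not taken, so these counts have nothing to be set against. Upstream stretches of 3 heavy chains, none of which holds a summit, are shown to set beside those of the assembly factors.
Dhc16F, plus strand, chrX:18064333-18064482: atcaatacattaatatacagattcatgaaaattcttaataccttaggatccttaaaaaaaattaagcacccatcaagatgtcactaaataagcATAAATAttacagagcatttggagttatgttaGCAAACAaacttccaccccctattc
Dhc93AB, minus strand, chr3R:21042500-21042649: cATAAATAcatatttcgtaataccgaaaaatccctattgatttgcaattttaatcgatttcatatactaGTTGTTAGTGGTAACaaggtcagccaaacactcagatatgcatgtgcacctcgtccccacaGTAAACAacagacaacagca
Dhc98D, plus strand, chr3R:28486803-28486952: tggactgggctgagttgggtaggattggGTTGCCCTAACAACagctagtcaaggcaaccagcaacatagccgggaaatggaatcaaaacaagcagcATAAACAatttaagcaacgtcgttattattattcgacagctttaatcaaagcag
Each ends at the base before the start site, with the same capitals. The X-box matches of Dhc93AB and Dhc98D were found on both strands, at 81 and 122 bp upstream. Dhc16F had 2 forkhead matches in this stretch and Dhc98D had 1. No pooled summit lay within these stretches, and for Dhc16F and Dhc98D none lay within 1000 bp.

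For the 10 summits at or inside the members, the interval of each motif share held the share over the whole pooled list, while for the other 54 the word GTAAACA was the exception. The forkhead consensus lay within 100 bp of 4 of the 10 member-owned pooled summits (40.0%, 95% exact interval 12.2 to 73.8%), of 30 of the 54 other summits in the windows (55.6%) and of 50.1% of all pooled summits. For the reproducible summits it was 7 of 12, against 60.0% of all reproducible ones. The X-box lay near 2 of the 10 (interval 2.52 to 55.6%) and 11 of the other 54, against 18.9% of all pooled summits. The word GTAAACA lay near 0 of the 10 (interval up to 30.8%) and 8 of the other 54 (14.8%, interval 6.62 to 27.1%), against 5.93% of all. Of those 8, only the summits at Rlip and CG5697, both in the Dhc93AB window, had a q-value of at most 0.05. For the reproducible summits of the windows it was 0 of 12, against 7.43% of all reproducible ones. These intervals treat summits as independent, and summits of 1 window share a locus. The median GC content in these 201 bp was 39.5% at member-owned summits, 36.0% at the others and 39.3% over all pooled summits.

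Other genes of ciliary motility were counted in the same way. They came from a list of 20 put together from knowledge of the field, with earlier results of these data known. Of these, 19 lay on arms with peaks, kl-2 on the Y chromosome being left out. A reproducible start-site summit was found at 1 of the 19 (5.26%, against 20.8% of all genes) and a pooled one at 9 (47.4%, against 58.4%). Replicate 1 had one at 7 (36.8%, against 60.1%), replicate 3 at 8 (42.1%, against 56.2%), and both had one at 4 (21.1%, against 45.7%). Every one of these shares lay below that over all genes, with no test made. They rest on the same 19 genes and the same 2 replicates, so they are not separate observations. The reproducible one was at CG10958, 137 bp upstream of its start site, with pooled rank 1960 and a signal of 197 (replicate 1 rank 2243, replicate 3 rank 2034). Dhc1, another axonemal heavy chain, came next at pooled rank 4760, with a summit 338 bp upstream that was also within 1000 bp of the start site of Nepl12. Replicate 1 had no start-site summit at Dhc1, and replicate 3 had one at rank 10992, 97 bp downstream. CG10859 followed at pooled rank 4842, 322 bp upstream and shared with CG7110 and an antisense RNA gene, with rank 8295 in replicate 1 and 3773 in replicate 3.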

How the data were processed

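Peak lists of fd3F-GFP ChIP-seq from 2 biological replicates were used as deposited, on build dm6 and in narrowPeak format, as the deposited file descriptions say. The deposited signal of each peak is the authors' score, and the deposited −log10 q-value was used only for a threshold of 0.05. For the aligner, the peak caller and the threshold of the IDR (irreproducible discovery rate), no name or value is given in the sources used here. A control experiment is named in the labels and its data are not used here.

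The members and gene lists were chosen with earlier results of these data known. Summits were placed on the Ensembl 115 annotation, whose coordinates for all 9 members match RefSeq, and Heatr2 was found through the RefSeq synonym of Dnaaf5. A summit was at a start site within 1000 bp of it, and replicate peaks matched with an overlap of 1 bp or more. Motifs were searched within 100 bp of summits, in sequence from the RefSeq assembly. All members were named, with each reproducible summit of their windows, the best and start-site pooled summits, neighbours with a start site within 1000 bp of a reproducible or best summit, and, of the motility list, genes with a reproducible start-site summit and the 3 best pooled ones. With 1 group no test was made. Exact (Clopper-Pearson) 95% intervals cover counting error only, and summits of a window are not independent. Alternatives were other windows, thresholds, match rules and each replicate alone. Depth is unknown, so no value carries a depth-based precision. Scripts (Python 3.11.15, numpy 2.4.6, scipy 1.17.1, matplotlib 3.10.9) were tested on simulated peaks and implanted motifs.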

Additional observations from a re-analysis of the deposited data

How the results depend on the processing

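No paired analysis was possible because the study has 1 group. Over 9 results, 34 of 49 alternative values stayed within 1.5 times a count or within the interval of a share. A count that stays at 1 can still change gene: among the best 3917 peaks of replicate 1 alone the member with a start-site summit was Heatr2 (rank 3251) and not tilB (rank 4765), and in replicate 3 alone it was tilB (rank 3128). In the upper part of the reproducible list (1958 peaks), no member had a start-site summit (0), against 1, the motility list had 0, and the windows held 6 summits in place of 12. With windows of 2000 bp, 2 motility genes had a reproducible start-site summit. Pooled peaks with a q-value of at most 0.05 left 32 summits in place of 64, of which 81.2% matched in both replicates. With them 4 members in place of 6 had a start-site summit, Zmynd10 and Dhc36C falling out, and 3 motility genes in place of 9. The share over all genes was not taken at that threshold or in the upper part of the reproducible list. It was also not taken with windows of 2000 bp or among the best 3917 peaks of 1 replicate. Extending genes by 5 kb gave 33 pooled summits and a member-owned share of 30.3%, and by 20 kb 116 pooled and 23 reproducible summits. The matched share was 45.3% when summits had to lie within 100 bp, and 17.2% when each match had to be among the best 3917 of its list. The forkhead share was 80.0% within 250 bp. With 1 replicate left out, the motility list had 1 to 2 genes with a start-site summit among the best 3917, and 2 came from replicate 3 alone. There were 2 replicates of whole embryos and no read counts. A missing summit means that no list holds one, which is not the same as absent binding. Peaks shared by neighbours cannot be assigned to either gene.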
